A study of Mus musculus with 5 samples.

Results

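The Wnt pathway genes described here are the 19 Wnt ligand genes, 12 receptor genes (Fzd1 to Fzd10, Lrp5 and Lrp6), the 4 Tcf/Lef effector genes and 4 inhibitor genes (Axin2, Dkk1, Dkk2 and Dkk3), 39 genes in all. They were chosen by name, and a peak was counted for a gene when its midpoint lay inside the gene's longest annotated transcript or up to 50 kb from either end of it. By this rule 278 of the 94621 deposited NEUROD2 peaks lay at these genes (0.294%), of which 155 came from antibody ab1, 105 from ab2 and 18 from ab3. After overlapping peaks were merged, 96 of the 32261 regions that had peaks of at least 2 antibodies lay at these genes.

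NEUROD2, a neuronal transcription factor of the basic helix-loop-helix family, was measured by ChIP-Seq in the cerebral cortex of BALB/c mouse embryos at E14.5, with no treatment or mutation named in the labels. Groups were 3 antibodies against NEUROD2 (ab1, ab2 and ab3) and 2 control antibodies against GFP, with 1 library each, so each value below has no biological replicate and the antibodies are the only repeats of the single condition. Tissue of several embryos was pooled and held every cell type of the dissected cortex, and binding in different cells cannot be told apart. Each NEUROD2 precipitate had been compared with a GFP precipitate made with an antibody of its own host species when peaks were called, so ab2 and ab3 share a control. The GFP libraries enter the data in this way alone, since their own reads were not analysed here.

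Wnt proteins are secreted lipid-modified ligands that bind a Frizzled receptor together with the co-receptor LRP5 or LRP6. In the canonical branch this stabilises beta-catenin, which joins a TCF or LEF protein on DNA and switches target genes on, while secreted DKK proteins and intracellular AXIN2 restrain the signal. In the developing cortex the pathway is known for its part in patterning from the cortical hem, in progenitor proliferation, in neuronal differentiation and axon growth, and in blood vessel ingrowth.

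The depth of a library cannot be read from a peak list. The ab1 list was the longest at 51841 peaks, followed by ab2 at 35310 and ab3 at 7470, and the counts for each antibody below follow this order. The strength of a peak is given as its deposited score, 10 × −log10 of the p-value from peak calling, which rises with read depth and was not scaled between libraries. Scores can therefore be ranked within an antibody, but a lower score of ab3 than of ab1 is not a measure of weaker binding.

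The 6 regions with the highest ab1 score at these genes are shown first, as examples of the strongest peaks at these genes with and without the motif. They lay in intron 4 of Tcf7l2, just beyond the 3′ end of Wnt7a, downstream of Wnt7b partly in exon 4 of its neighbour 7530416G11Rik, downstream of Fzd7 inside the neighbour Gm973, beyond the 3′ end of Wnt9b and upstream of Wnt3 in an exon of the non-coding gene Gm11642, and upstream of Fzd10 in an exon of the non-coding gene 5930412G12Rik. Each line gives the central 200 bases of the region on the plus strand of the mm10 build, as read from the RefSeq copy of that assembly (GRCm38.p6). Capitals mark the 6-base core of each extended E-box, a motif defined as CA, then G or T, then C or A, then TG, then G or T, read on both strands.
Tcf7l2, chr19:55880656-55880855: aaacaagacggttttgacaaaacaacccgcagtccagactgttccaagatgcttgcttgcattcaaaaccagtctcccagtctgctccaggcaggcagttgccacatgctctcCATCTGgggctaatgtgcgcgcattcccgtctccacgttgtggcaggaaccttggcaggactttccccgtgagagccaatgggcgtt
Wnt7a, chr6:91359727-91359926: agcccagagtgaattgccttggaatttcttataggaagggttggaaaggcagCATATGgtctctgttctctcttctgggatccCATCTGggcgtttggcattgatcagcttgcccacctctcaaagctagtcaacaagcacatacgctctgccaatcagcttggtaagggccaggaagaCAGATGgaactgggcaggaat
Wnt7b, chr15:85494203-85494402: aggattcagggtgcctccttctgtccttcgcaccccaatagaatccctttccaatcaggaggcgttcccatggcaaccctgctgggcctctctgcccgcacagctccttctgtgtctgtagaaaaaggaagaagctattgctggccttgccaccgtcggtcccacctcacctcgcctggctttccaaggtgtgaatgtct
Fzd7, chr1:59535616-59535815: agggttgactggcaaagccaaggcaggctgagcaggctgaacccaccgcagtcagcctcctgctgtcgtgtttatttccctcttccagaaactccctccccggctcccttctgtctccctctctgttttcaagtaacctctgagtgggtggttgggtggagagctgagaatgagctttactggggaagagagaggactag
Wnt3 and Wnt9b, chr11:103724491-103724690: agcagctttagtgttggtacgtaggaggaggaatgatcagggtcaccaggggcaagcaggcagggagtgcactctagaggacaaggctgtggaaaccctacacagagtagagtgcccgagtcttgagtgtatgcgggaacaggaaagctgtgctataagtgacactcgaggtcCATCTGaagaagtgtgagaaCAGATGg
Fzd10, chr5:128595186-128595385: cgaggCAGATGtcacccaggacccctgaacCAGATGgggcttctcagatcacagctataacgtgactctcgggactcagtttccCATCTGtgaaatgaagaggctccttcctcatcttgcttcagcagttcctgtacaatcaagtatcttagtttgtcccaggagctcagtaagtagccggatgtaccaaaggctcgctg
For contrast, the 200 bases before the outermost annotated start of Lrp6 are given on the gene's own (minus) strand. They lie in a region at the transcription start site (TSS), and 81% of them are G or C.
Lrp6, chr6:134566966-134567165: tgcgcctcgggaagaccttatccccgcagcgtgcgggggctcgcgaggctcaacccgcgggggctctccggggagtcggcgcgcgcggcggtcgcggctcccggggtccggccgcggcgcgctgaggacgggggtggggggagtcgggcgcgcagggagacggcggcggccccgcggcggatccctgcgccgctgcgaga

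The central 200 bases of the Wnt7a and Fzd10 regions held 3 extended E-boxes each, those of the Wnt3 and Wnt9b region held 2 and those of the Tcf7l2 region held 1. The Wnt7b and Fzd7 centres held none, although both regions had peaks of all 3 antibodies, and neither did the Lrp6 sequence. A missing match says only that these letters were not in this window.

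Of the 39 genes, 31 had at least 1 region with peaks of 2 or more antibodies (79.5%, 95% Wilson interval 64.5 to 89.2, counting error only), against a background of 67.6% of the 21938 protein-coding genes with the same window. For regions with all 3 antibodies the count was 14 of 39 genes (35.9%, interval 22.7 to 51.6), beside 26.7% of coding genes. Both intervals included the background share. The count of 14 depends on distal regions, since it was 8 with flanks of 10 kb and 2 within the gene spans alone, and it was 8 with peak scores of at least 100. Counted for each antibody alone, 36 of the 39 genes had a peak of ab1 (92.3%, interval 79.7 to 97.3), beside 77.5% of coding genes. Here the interval lay narrowly above the background, but it treats the genes as independent, although some neighbouring ligand genes share peaks. A peak of ab2 was found at 31 (79.5%, beside 70.2%) and one of ab3 at 14 (35.9%, beside 27.3%), with intervals as above that included the background. The mean was 27 ± 11.5 genes (SD, n = 3 antibodies). These counts rest on ab1 and ab2, since every one of the 96 regions had a peak of both and 18 had one of ab3. Over all 32261 regions, 99.95% had a peak of ab1 and 99.89% one of ab2. Without either ab1 or ab2, 18 regions at 14 genes remained.

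**Figure D1:**
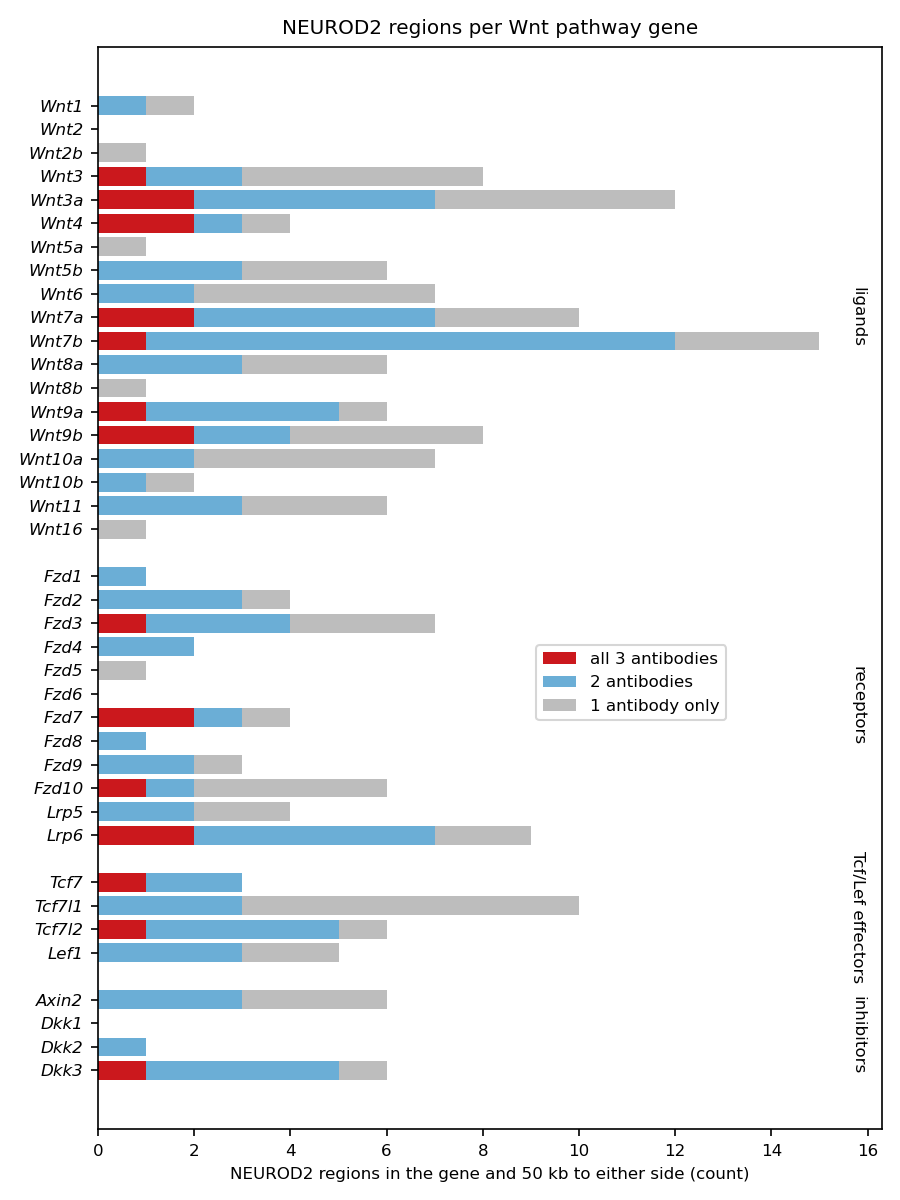
Number of NEUROD2 regions (horizontal axis, count) in each of the 39 genes and the 50 kb to either side, stacked by the number of antibodies with a peak in the region and ordered by role. Wnt7b has the longest bar, with 12 regions of 2 or more antibodies, and Wnt2, Fzd6 and Dkk1 have no bar.

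Regions were spread unevenly over the 31 genes. Wnt7b had 12, Wnt3a, Wnt7a and Lrp6 had 7 each, Wnt9a, Tcf7l2 and Dkk3 had 5 each, and Wnt9b and Fzd3 had 4 each. There were 3 at each of Wnt3, Wnt4, Wnt5b, Wnt8a, Wnt11, Fzd2, Fzd7, Tcf7, Tcf7l1, Lef1 and Axin2. A pair of regions lay at each of Wnt6, Wnt10a, Fzd4, Fzd9, Fzd10 and Lrp5, and 1 at each of Wnt1, Wnt10b, Fzd1, Fzd8 and Dkk2. Some ligand genes are neighbours and share regions, namely Wnt3a with Wnt9a (5), Wnt3 with Wnt9b (2), Wnt6 with Wnt10a (2) and Wnt1 with Wnt10b (1). The sum over genes was therefore 106, while 96 regions were distinct.

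No region of 2 antibodies was found at 8 genes. Among them Wnt2, Fzd6 and Dkk1 had no peak of any antibody. Wnt2b, Wnt5a, Wnt8b, Wnt16 and Fzd5 had 1 peak each, all of ab1, with scores of 255, 53.6, 65.4, 109 and 83.9. The Wnt5a peak was thus close to 50, the lowest score in the list.

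Per 100 kb of window, the median over the 39 genes was 1.78 regions, and over all coding genes it was 0.95, with median windows of 122 kb and 117 kb. With peak scores of at least 100 the medians were 0.96 and 0.62. With all 3 antibodies required the median over the 39 genes was 0, as most genes had no such region, and it was also 0 without ab1 or without ab2. Of the 39 genes, 28 lay above the coding gene median, 12 above the upper quartile and 4 above the 90th percentile. Those 4 were Wnt7b with 8.16 regions per 100 kb, Wnt3a with 4.90, Wnt7a with 4.75 and Wnt9a with 3.95, and Wnt7b stood at percentile 99.3. Wnt3a and Wnt9a are not independent here, because 5 regions count for both. By role, 14 of 19 ligand genes, 10 of 12 receptor genes, 4 of 4 effector genes and 3 of 4 inhibitor genes had a region of 2 or more antibodies, beside 67.6% of coding genes. The median window was 122 kb for ligand genes, 107 kb for receptor genes, 238 kb for effector genes and 137 kb for inhibitor genes, so the roles were not searched over equal lengths.

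**Figure D2:**
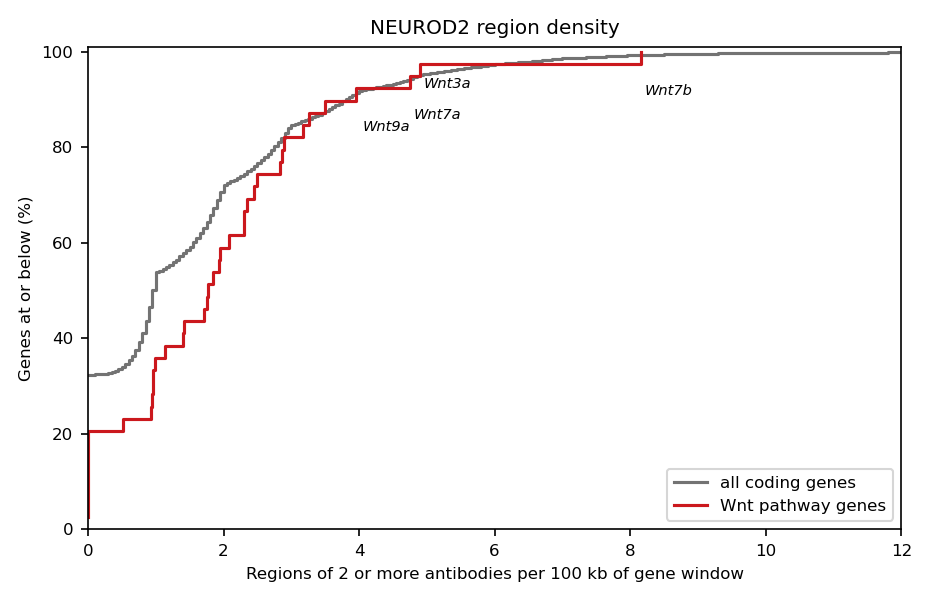
Cumulative share of genes (vertical axis, percent) at or below a given number of regions per 100 kb of gene window (horizontal axis), for all 21938 coding genes in grey and the 39 Wnt pathway genes in red. The red line lies to the right of the grey one at low densities and meets it above about the upper quartile, and Wnt7b lies far to the right at 8.16.

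Positions within the loci also differed. Of the 106 placements, 39 were downstream of the gene, 31 in an intron, 27 upstream and 9 in an exon, of which 7 held coding sequence at the midpoint and 2 lay in a 3′ untranslated part. The closest coding TSS was that of a Wnt pathway gene for 62 of the 96 regions (64.6%) and that of another gene for 34. Among the latter, 6 had their closest coding TSS at 7530416G11Rik beside Wnt7b, 3 at Extl3 beside Fzd3 and 3 at Bcl2l14 beside Lrp6. A closest TSS need not be near, as the Bcl2l14 TSS was 43460 to 74725 bp away and 2 of those 3 regions lay inside Lrp6. As a count without a distance limit, 28 of the 39 genes were the closest coding gene of at least 1 region (71.8%, interval 56.2 to 83.5), beside 43.8% of coding genes. For 26 of them such a region lay in the window used here, and the others, Wnt5a and Wnt16, had no region of 2 antibodies in their window. Which gene a distant region acts on was not tested.

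**Figure D3:**
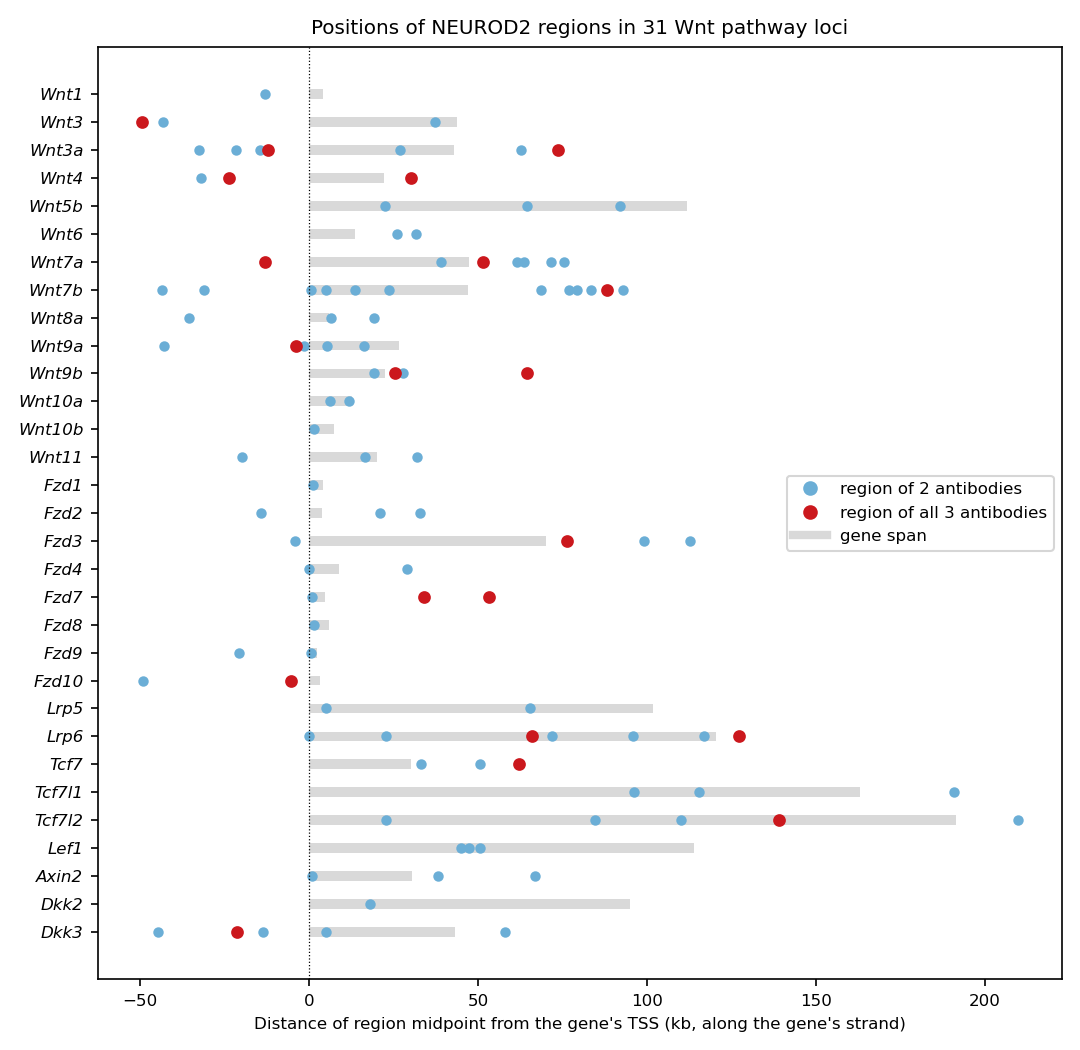
Distance of each region's midpoint from the gene's TSS (horizontal axis, kb, negative is upstream) for the 31 genes with a region of 2 or more antibodies. Grey bars are gene spans, blue points are regions of 2 antibodies and red points regions of all 3, and no red point lies on a TSS line.

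The window ends at 50 kb, and regions of varied strength lay on both sides of that edge. Just inside were the Wnt3 region at 49.6 kb beyond the gene's end, which had all 3 antibodies, a region of Fzd10 at 49.2 kb with ab1 138 and ab2 66.9, and the strong Fzd7 region at 48.8 kb. Just outside were a region 51.2 kb from Wnt10a with ab1 126 and ab2 161, and a region 51.3 kb from Fzd4 with all 3 antibodies (ab1 898, ab2 450.2, ab3 85.2). Further out, regions of all 3 antibodies lay 52.5 kb from Tcf7l2 with ab1 1167 and 53.6 kb from Tcf7 with ab1 994.5.

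Among the ligands, Wnt7a had the strongest region of the set. WNT7A and WNT7B are close relatives that signal from neural cells to brain endothelium. The region chr6:91358756-91360899 lay 51.5 kb from the Wnt7a TSS, just past the 3′ end of the gene, and scored 3100 with ab1, 2726 with ab2 and 438 with ab3. Its ab2 score was at percentile 99.6 of all ab2 peaks and its ab3 score at 95.7, whereas 661 ab1 peaks were tied at 3100. The other region of Wnt7a with all 3 antibodies, 13 kb upstream, was weak, at 82.96, 76.0 and 52.8. The remaining 5 regions had 2 antibodies and ab1 scores of 61.3 to 145, with 4 of them downstream between 61.4 and 75.5 kb from the TSS. For all 7 regions the closest coding TSS was that of Wnt7a itself.

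Wnt7b carried the largest number of regions, in a chain from 43.6 kb upstream to 92.8 kb downstream of its TSS. The region chr15:85579998-85583982 lay 483 bp inside the gene, in intron 1, and at 3985 bp it was the widest of the 96. It scored 647 with ab1 and 255 with ab2, with no ab3 peak, and its centre held no extended E-box. Intron 1 held a further pair of regions, and coding exon 2 held 1, with ab1 scores of 183 to 305. The highest ab1 score at the locus was 88.2 kb downstream at chr15:85493222-85495385, where ab1 scored 2785, ab2 1124 and ab3 123. That region is closer to the TSS of 7530416G11Rik (8924 bp), and the same neighbour was the closest coding gene of all 6 downstream regions. The most distal upstream region, at 43.6 kb, had ab1 1160 and ab2 683, the highest ab2 score among the 78 regions without ab3.

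Wnt3a and Wnt9a lie head to head, and 5 regions fell in both windows. WNT3A is the classical canonical ligand of the cortical hem, a signalling centre at the dorsal midline. The shared region with all 3 antibodies, chr11:59302440-59303467, lay 3975 bp upstream of Wnt9a and 12.2 kb upstream of Wnt3a, with scores of 953, 322.5 and 87.9. A further shared region 1452 bp upstream of Wnt9a had ab1 430.2 and ab2 105, and another shared pair lay in intron 1 of Wnt9a with ab1 651 and 235. Of the shared regions, 4 were closest to the Wnt9a TSS, and the fifth, in intron 2 of Wnt3a, was closest to Wnt3a and scored 375 with ab1 and 216 with ab2. On the far side, Wnt3a had a region of all 3 antibodies 73.7 kb from its TSS inside Arf1 (579, 379 and 69.1) and one 17 bp from the Arf1 TSS (ab1 135, ab2 73.4).

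Wnt3 and Wnt9b are also neighbours. The region chr11:103724057-103725126 lay beyond the 3′ end of Wnt9b, 25.2 kb downstream of its TSS and 49.6 kb upstream of Wnt3 with Wnt9b in between, and scored 2078 with ab1, 850.2 with ab2 and 172 with ab3. Wnt9b had another region of all 3 antibodies at chr11:103684911-103686003, inside Gosr2 and 64.4 kb from its TSS, with 1347, 594 and 64.7. The second shared region was weaker, with ab1 165 and ab2 55.0, in the 3′ untranslated part of exon 4 of Wnt9b. Within Wnt3 itself the one region sat in coding exon 3, 37.2 kb from the TSS, with ab1 136 and ab2 64.5.

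Wnt4, which encodes a ligand with both canonical and non-canonical activity, had 3 regions and was the closest coding gene of each. The one at chr4:137307014-137308218, 30.1 kb from the TSS and downstream, scored 1198, 478 and 86.6 with ab1, ab2 and ab3. At chr4:137253033-137254135, 23.9 kb upstream, the scores were 622, 461 and 69.5. The third, 32.0 kb upstream, had ab1 157 and ab2 107 and no ab3 peak. Both regions with ab3 thus lay outside the transcribed gene, on opposite sides.

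The other ligand genes had regions of ab1 and ab2 alone. The highest ab1 score among all 78 such regions was 1312, with ab2 617, at chr1:74797190-74798207 in intron 2 of Wnt10a, a region that also fell in the window of Wnt6. Wnt5b had 3 intronic regions with ab1 418 to 935, of which the lowest lay 391 bp from the TSS of the embedded gene Fbxl14. Wnt8a had 3 with ab1 108 to 622, and Wnt11, a non-canonical ligand, had 3 weak ones with ab1 90.8 to 256. Wnt1 and Wnt10b shared a single weak region, ab1 76.1 and ab2 102, in intron 2 of Wnt10b. The ligand genes thus ranged from the strongest region of the set to loci near the calling limit.

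**Figure D4:**
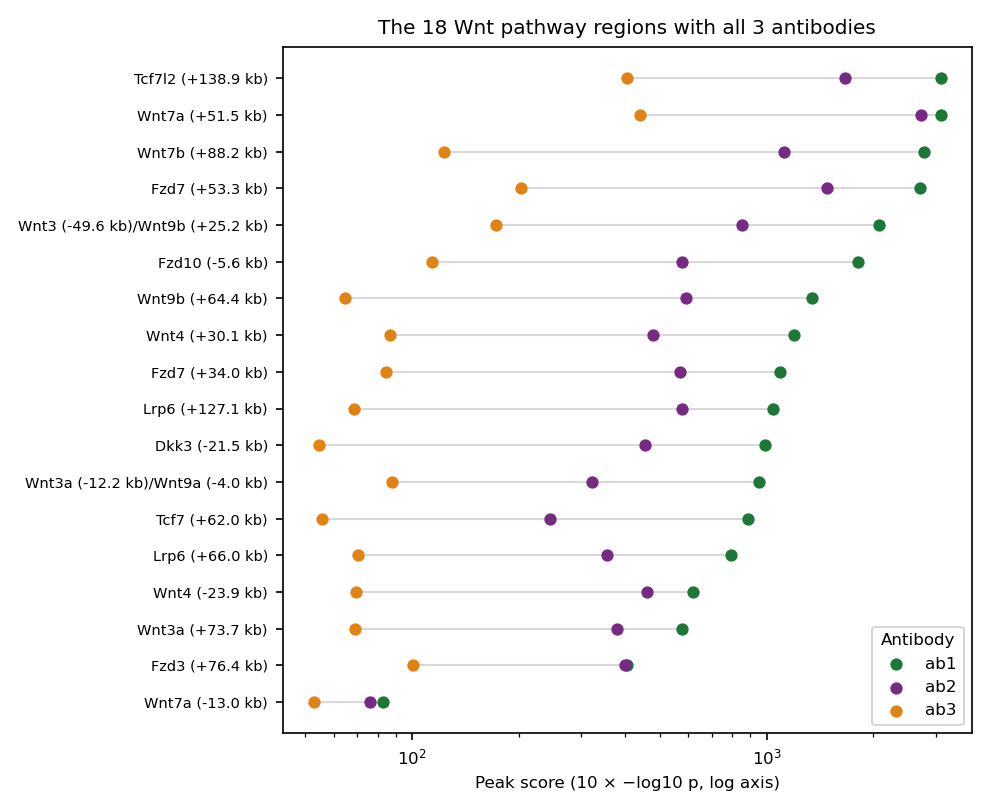
Peak scores (horizontal axis, 10 × −log10 p, log axis) of ab1, ab2 and ab3 in the 18 regions with all 3 antibodies, each row labelled with its gene or genes and the distance from their TSS. In every row ab1 is highest and ab3 lowest, and the Tcf7l2 and Wnt7a regions reach the highest ab3 scores.

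Among the receptors, Fzd7 and Fzd10 had the strongest regions. Frizzled proteins are membrane receptors of Wnt ligands. At Fzd7 the region chr1:59534834-59536599, 53.3 kb from the TSS and inside Gm973, scored 2719 with ab1, 1484 with ab2 and 202 with ab3. A second region of all 3 antibodies, chr1:59515761-59517018, scored 1088, 569.5 and 84.6, but it lay 125 bp from the Gm973 TSS. The third, at chr1:59481722-59484643, had its midpoint 758 bp inside Fzd7, in its coding exon, with ab1 342 and ab2 69.4. Of these 3 regions, the one on the receptor gene itself thus had the lowest scores.

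For Fzd10 the region chr5:128594937-128595636 lay 5558 bp upstream of the TSS and scored 1811, 577 and 114. It was one of 5 regions of all 3 antibodies that were placed upstream of every gene whose window held them. The other Fzd10 region was the weak one at the window's edge. Fzd3, which encodes a receptor needed for axon tract formation, had 4 regions, and for none of them was Fzd3 the closest coding gene. Its region with all 3 antibodies, chr14:65185639-65186504, lay 76.4 kb from the TSS and scored 404, 399.8 and 100.3. The others were within 35 bp of the Fbxo16 TSS (ab1 311, ab2 155), within 7 bp of the Extl3 TSS (ab1 86.6, ab2 81.9) and 13652 bp from the latter (ab1 251, ab2 120).

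LRP6 is the co-receptor that DKK1 blocks. Lrp6 had 7 regions, of which 2 had all 3 antibodies, at chr6:134439212-134440345 beyond its 3′ end (1045, 576 and 68.4) and at chr6:134500673-134501209 in intron 7 (794, 355 and 70.3). The region at the TSS, chr6:134566313-134567603, had its midpoint 45 bp upstream and was weaker, with ab1 210.03 and ab2 54.2. In the rest of the gene, 4 regions of 2 antibodies had ab1 scores of 72.8 to 321. Its sister gene Lrp5 had 2 regions, both intronic and without ab3, with ab1 325 and 203.

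Fzd4 and Fzd9 had a region on the TSS and no ab3 peak. The Fzd4 region, chr7:89403258-89405201, was 126 bp upstream of Fzd4 and 7 bp from the TSS of the divergent gene Tmem135, with ab1 89.6 and ab2 71.3. At Fzd9 the region chr5:135249776-135251611 was centred 537 bp into the coding exon, with ab1 210.09 and ab2 53.6. The single-exon genes Fzd1 and Fzd8 had stronger regions that covered the TSS, but with midpoints just outside the 1 kb limit. These midpoints lay at 1002 bp with ab1 728 and ab2 351, and at 1275 bp with ab1 886 and ab2 619. Fzd2 had 3 regions with ab1 52.6 to 233.

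All 4 genes of the Tcf/Lef family, the DNA-binding end of the canonical pathway, had regions, and none of those regions lay within 1 kb of its own TSS. Tcf7l2 had the region chr19:55880099-55881413 in intron 4, 138.9 kb from the TSS, with ab1 3100, ab2 1669.7 and ab3 404. The ab3 score was at percentile 95.0 of ab3 peaks, next to that of the Wnt7a region. Its other 4 regions, 3 intronic and 1 downstream, had ab1 scores of 205 to 373 and no ab3. Tcf7 had regions downstream alone, led by chr11:52220111-52221028 with 888, 244 and 55.7. The closest coding TSS to that region was that of the olfactory receptor gene Olfr1371. The other regions of Tcf7 were closest to the TSS of Skp1a, at 17528 and 138 bp from it. Lef1 had 3 regions in a row in intron 3, between 44.8 and 50.5 kb from its TSS, with ab1 1251, 1043 and 121 and ab2 339, 398 and 126, and it was the closest coding gene of all 3. Tcf7l1 had 3, with ab1 62.1 to 339.7, none closest to its own TSS.

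Of the inhibitors, Dkk3, a divergent member of its family that does not act through LRP6, had 5 regions. Its region with all 3 antibodies, chr7:112180030-112181052, lay 21.5 kb upstream and scored 992, 455.5 and 54.6, and the other 4 had ab1 scores of 89.2 to 343. Axin2, a direct target gene of the canonical pathway and a feedback inhibitor, had a region in intron 1 centred 703 bp from the TSS, chr11:108919771-108922334, with ab1 154 and ab2 134. A pair of stronger regions lay downstream, with ab1 317 and 364. Dkk2 had 1 intronic region with ab1 421 and ab2 311, the only peaks at that gene.

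Few regions had their midpoint within 1 kb of the start sites of these genes, and all were of ab1 and ab2. Of the 39 genes, 6 had a region within 1 kb of the TSS (15.4%, interval 7.25 to 29.7), beside 20.8% of coding genes. They were Wnt7b, Fzd4, Fzd7, Fzd9, Lrp6 and Axin2. The count was 2 with peak scores of at least 100, and 0 without ab1 or without ab2. The stronger Fzd1 and Fzd8 regions covered the TSS but are not among the 6, since their midpoints lay beyond 1 kb. In these 6 regions ab1 ranged from 89.6 to 647 with a median of 210.06 and ab2 from 53.6 to 255 with a median of 70.4. No ab3 peak and no extended E-box in the centre was found in any of the 6, a share that with so few regions could be as high as 39.03% (upper Wilson limit). Over the whole set, 12.7% of regions lay within 1 kb of a coding TSS, and 20.8% of those held the motif. Of all regions with 3 antibodies, 95.5% lay over 1 kb from any coding TSS, so the absences in 6 regions are not read as a trait of these genes. The centres of the 6 regions were rich in G and C, with a median of 71.2% (58.5% to 83%). Besides these, 5 genes without such a region had a region of 1 antibody alone within 1 kb of the TSS (12.8%, interval 5.60 to 26.7), beside 16.4% of coding genes. All 5 were of ab1, with scores of 819 at Fzd2, 174 at Lef1, 125 at Wnt9a, 96.2 at Wnt7a and 50.2 at Wnt5b. The Fzd2 peak outscored most regions of 2 antibodies although ab2 and ab3 had none there.

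Over all 96 regions, 60 held an extended E-box in the central 200 bp (62.5%, interval 52.5 to 71.5), and 59.7% of all 32261 regions did. In windows of the same length that began 1000 bp beyond the region, the share was 29.2% on the left and 16.7% on the right. Split by position, 58 of the 81 regions over 1 kb from any coding TSS held the motif (71.6%, interval 61.0 to 80.3), beside 65.4% of all such regions, and 2 of the 15 closer ones did (13.3%, interval 3.74 to 37.9), beside 20.8%. The 2 exceptions lay at the start sites of the neighbours Gm973 and 7530416G11Rik. The median share of G and C was 55% in the distal centres and 67.5% in those near a start site, and its part in the motif counts was not tested.

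The core CAGATG, or its reverse complement, was found as an extended E-box in 41 of the 96 centres (42.7%), beside 39.1% of all regions. The palindromic core CAGCTG was found in 25 (26%, beside 23.4%). The core CATATG was found in 7 (7.29%, beside 10.6%). A centre can hold more than 1 core, and 20 centres held 2 or more extended E-boxes (20.8%, beside 22.2%). None of these shares differed from that of all regions by more than its own interval.

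Regions with an ab3 peak were mostly those with high ab1 and ab2 scores. Across the 96 regions the log10 scores of ab1 and ab2 had a Pearson r of 0.891 and a Spearman rho of 0.843, given as a description, since regions are not replicates and share the tissue and its chromatin. The ab1 score exceeded that of ab2 in 86 of 96. The 18 regions with ab3 had a median ab1 score of 1066.5 (82.96 to 3100) and a median ab2 score of 524, and the 78 without it had 210.06 (50.4 to 1312) and 103. The weak upstream region of Wnt7a was the exception among the 18. Of the 18, 13 held an extended E-box (72.2%, interval 49.1 to 87.5), beside 63.5% of all regions with 3 antibodies, and 17 lay over 1 kb from any coding TSS (94.4%, beside 95.5%). As a share of regions, 18 of 96 is 18.8% (interval 12.2 to 27.7), beside 22.2% in all.

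**Figure D5:**
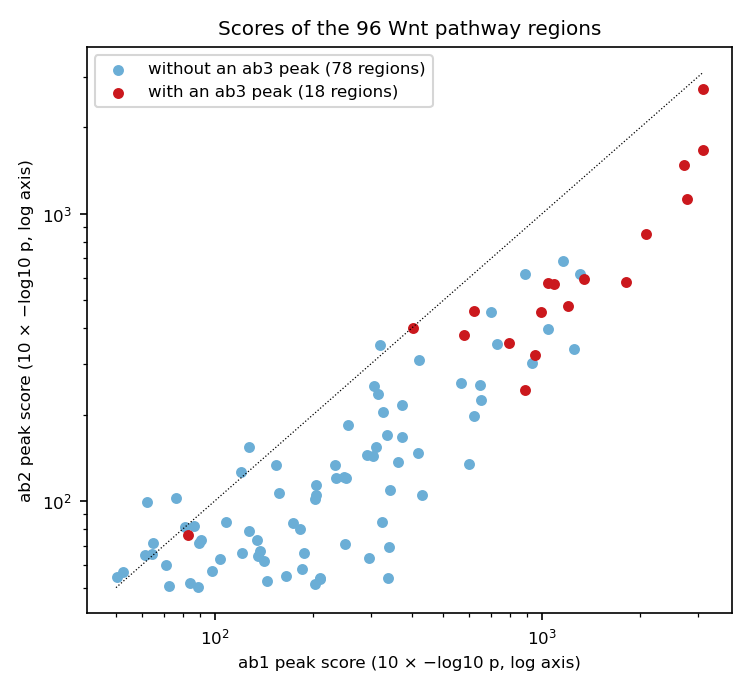
Score of ab1 (horizontal) against score of ab2 (vertical) in each of the 96 regions, both as 10 × −log10 p on log axes, with regions that also had an ab3 peak in red and a dotted line of equal scores. Red points sit at the upper right, save the weak upstream region of Wnt7a, and 86 of the 96 points lie below the dotted line.

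Median ab1, ab2 and ab3 scores at these genes were 295, 124 and 85.6, beside 278, 140.2 and 90.5 in all regions of 2 or more antibodies. The median width was 1011.5 bp (440 to 3985), beside 865 bp. A further 66 regions at these genes had 1 antibody only, 58 of ab1 with a median score of 80.7 and 8 of ab2 with a median of 55.6.

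A score that weights each region by its closeness to the TSS orders the genes differently from a count. Each region was given to the coding gene with the closest TSS and weighted by a factor that falls exponentially over 5000 bp. By this measure Wnt9a led with 1.58 (rank 287 of the coding genes), then Wnt7b with 1.35 (rank 508), and both were above 1.08, the mean plus 1 SD over coding genes with a region. That is 2 of 39 genes (5.13%, interval 1.42 to 16.9), beside 4.24% of coding genes. The count was 0 without ab1, without ab2 or with all 3 antibodies required, 1 with a decay length of 1000 bp and 4 with 50000 bp. Lrp6 followed with 1.00 and Fzd9 with 0.914, below that level. Wnt7a and Tcf7l2, which held the highest peak scores, had 0.0746 and 0.0104, because their strong regions are far from the TSS.

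A list of 59 other genes of the pathway was examined in the same way. Of these, 52 had a region of 2 or more antibodies (88.1%, interval 77.5 to 94.1, beside 67.6% of coding genes) and 26 had one of all 3 (44.1%, interval 32.2 to 56.7, beside 26.7%). Without ab1 or without ab2, the count of 52 fell to 26. A region lay within 1 kb of the TSS in 18 (30.5%, interval 20.3 to 43.1, beside 20.8%), and 6 had a high closeness score (10.2%, interval 4.74 to 20.5, beside 4.24%). The median density was 2.02 regions per 100 kb, beside 0.95 in all coding genes, in a median window of 138 kb. The most regions were found at Ror2, a receptor for non-canonical ligands, with 13, and at Nkd1, a feedback inhibitor that binds Dishevelled, with 11. Celsr1 and Prickle2, which act in planar cell polarity, followed with 9 each, and Bcl9, Celsr2, Daam1, Dkkl1 and Prickle1 had 8 each. Dkkl1 was the closest coding gene of none of its 8 regions, and 1 of them lay 156 bp from the TSS of Slc17a7. The other genes in this ranking were each the closest coding gene of some of their regions. No region of 2 antibodies was found at Frzb, Sfrp2, Sfrp4, Sostdc1, Rspo4, Rnf43 or Nkd2. Frzb, Sfrp2 and Sfrp4 encode secreted Frizzled-related proteins that bind Wnt ligands, and of the same family Sfrp5 had 1 region and Sfrp1 had 4, with a closeness score of 1.30 for Sfrp1.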

How the data were processed

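ChIP-Seq was performed on E14.5 mouse cortex with 3 antibodies against NEUROD2 and 2 against GFP, 1 library each. The authors mapped single-end reads to mm10 with Bowtie and called peaks per antibody with MACS against a GFP library. The deposited score is 10 × −log10 of the p-value and was not scaled between libraries. A score depends on read depth, which was not used here, and intervals cover counting error only.

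Peaks sharing at least 1 bp were merged, and regions with at least 2 antibodies were kept. Region midpoints were placed on the longest-span transcript of each gene in GENCODE release M21, whose build and chromosome lengths matched the peaks. Positions count from 1. BALB/c variants in motifs were not seen, since the reference is of another strain. The genes described in full were those with a region of all 3 antibodies or a region within 1 kb of the TSS, and of the other 59 pathway genes those with the most regions and those with none. The genes, lists and measures were chosen with earlier results of these data known. No statistical test was run, because the design holds 1 condition. Analyses used Python 3.11.15, numpy 2.4.6, scipy 1.17.1, pysam 0.24.0 and matplotlib 3.10.9, and were tested on simulated data, where 19 of 19 checks were recovered. Alternatives were a score of at least 100, an overlap of 50% of the shorter peak, flanks of 10 kb or none, all 3 antibodies, the middle of the highest peak, each antibody left out, other transcripts or gene types, other motif definitions and decay lengths of 1000 and 50000 bp.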

Additional observations from a re-analysis of the deposited data

How the results depend on the processing

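The number of genes with a region of 2 or more antibodies moved by over 1.5 times when ab3 was required or when ab1 or ab2 was left out, and in no other setting tried. With a peak score of at least 100, 57 regions were left, of which 12.3% had all 3 antibodies, 8 genes had one of all 3 antibodies and 2 had one within 1 kb of the TSS, and the median density was 0.96 per 100 kb. With flanks of 10 kb there were 55 regions and 8 genes with all 3 antibodies. Within the gene spans alone there were 40 regions, of which 5% had all 3 antibodies and 50% an extended E-box, and 2 genes had a region of all 3. When all 3 antibodies were required, 18 regions at 14 genes were left, of which 72.2% held the E-box, with 0 genes at the TSS, 0 with a high closeness score, a median density of 0, and 26 of the other 59 genes. Leaving out 1 antibody and requiring both others gave 18 to 96 regions, 14 to 31 genes, 0 to 6 genes at the TSS, an E-box share of 62.5% to 72.2%, a median density of 0 to 1.78, 0 to 2 genes with a high closeness score and 26 to 52 of the other 59 genes. The values without ab3 were the high ends, and those without ab1 or ab2 the low ends, except for the E-box share, where the reverse held. For genes with every remaining antibody the range was 14 to 31, and for the share of regions with every remaining antibody it was 100% to 100% by construction. CANNTG in place of the extended E-box was found in 79.2% of centres, and the extended motif anywhere in the region in 89.6%. A decay length of 1000 bp left 1 gene with a high closeness score and 50000 bp gave 4. Of 83 alternative values in all, 38 moved and 45 did not, by a margin of 1.5 times for counts, the 95% interval for shares and 1 SD over antibodies for the density (1.51). No paired analysis was possible because each antibody has 1 library of a single condition and no test was run. Weak loci are limited by the calling threshold, since a region under it in 1 library is lost from the counts.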
